A study of Mus musculus with 8 samples.

Results

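The 3 D cyclins (*Ccnd1*, *Ccnd2* and *Ccnd3*) and 6 genes of growth arrest (*Cdkn1a*, *Cdkn1b*, *Cdkn1c*, *Mdm2*, *Gadd45a* and *Sfn*) were followed through sorted populations and single cells of the mouse epidermis. They were taken by symbol, 9 of the 19593 gene rows of the tables, and all 9 were found. The set was chosen by measured values of the same single cells, in which *Ccnd2* led the undifferentiated wells and *Cdkn1a* the wells rich in *Krt10*. The levels of these genes across classes of wells are therefore a description, with no test.

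D cyclins are the regulatory subunits that activate the kinases CDK4 and CDK6 in early G1, which phosphorylate the retinoblastoma protein and let a cell pass toward S phase. *Cdkn1a* (p21), *Cdkn1b* (p27) and *Cdkn1c* (p57) encode the CIP/KIP inhibitors, which bind cyclin and kinase complexes and hold the cycle. *Cdkn1a*, *Mdm2*, *Gadd45a* and *Sfn* (14-3-3 sigma) are textbook targets of p53, and *Mdm2* is the ubiquitin ligase that returns p53 to a low level. In the interfollicular epidermis (IFE) cells divide in the basal layer, leave the cycle and move up while they switch from *Krt14* to *Krt1* and *Krt10*; SFN is also known there as stratifin, a protein of differentiating keratinocytes.

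All mice were adult C57BL/6 animals with a cassette of EGFP, IRES and CreERT2 knocked into *Troy* (*Tnfrsf19*) in place of its coding region, so that EGFP and the recombinase follow the *Troy* promoter. Bulk mRNA came from 3 populations of the same 2 *Troy*-EGFP-IRES-CreERT2 mice, namely all viable (DAPI-) cells, ITGA6bright EGFP+ cells and ITGA6bright EGFP- cells, where bright ITGA6 marks the basal layer. Single cells were sorted into 1 plate of 384 wells for each of 4 *Troy*-EGFP-IRES-CreERT2 mice and for each of 2 mice that were homozygous for this cassette and for *Rosa26*-LSL-tdTomato and had received tamoxifen 7 days earlier, which labels cells with an active *Troy* promoter and their progeny (traced mice). The plates mixed ITGA6 gates with EGFP or tdTomato gates, and the gate of each well was not used here, so wells were described by clusters.

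Bulk libraries held 157537 to 453005 counts and plates 236806 to 1064649 transcripts, of which 1109 of 2304 wells passed the minimum of 1000 transcripts. Of these, 26 to 216 epidermal wells a plate remained after clusters of necrotic-like, T cell-like and Langerhans cell-like wells and a cluster led by *Lipi* were taken out; the fewest were on *Troy*-EGFP plate 1, which lost 63.4% of its wells. All plates used the same 384 well barcodes, and 0 kept wells were identical between plates. The tables of *Troy*-EGFP plates 3 and 4 list mitochondrial gene rows and those of the other 4 plates list none, and plate results are given within these sets of gene rows as well. The labels give no sex. *Xist*, which is made from the inactive X chromosome of females, summed to 122 and 112 transcripts on *Troy*-EGFP plates 3 and 4 and to 0 on the other 4 plates, while 4 Y-linked genes (*Ddx3y*, *Eif2s3y*, *Kdm5d* and *Uty*) summed to 1 and 0 on plates 3 and 4, to 32.0 and 100.0 on plates 1 and 2 and to 151 and 196 on the traced plates. Sex by these transcripts therefore goes with the set of gene rows and cannot be told apart from it. All 6 bulk libraries held Y-linked counts (42 to 212), with at most 1 *Xist* count. The targeted gene gave 107 and 67.4 counts per 1000000 counts of the library (CPM) in the EGFP+ libraries against 18.6 and 30.5 in the EGFP- libraries. For *Tnfrsf19* on the plates, the levels were 32.4 to 71.4 CPM in *Troy*-EGFP mice and 6.20 and 9.05 in the homozygous traced mice.

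The 9 genes lie on 5 autosomes of the mouse genome in the RefSeq annotation of GRCm38.p6. *Cdkn1a* spans chr17:29090979-29100722 and *Ccnd3* chr17:47505051-47599689 on the same chromosome. *Ccnd2* spans chr6:127125162-127152188, *Cdkn1b* chr6:134920401-134925525 and *Gadd45a* chr6:67035096-67037407. *Ccnd1* lies at chr7:144929931-144939831, *Cdkn1c* at chr7:143458339-143461059, *Mdm2* at chr10:117688875-117710758 and *Sfn* at chr4:133600556-133602168. RefSeq promoter windows of 250 bases before the transcription start were at hand for 6 of the 9 genes, in 8 windows, and were searched on both strands for the p53 half-site, the 10-base consensus of which p53 binds a pair. A pair with at most 13 bases between its sites occurred in 21 of 32851 mouse windows (0.0639%), and among the members in the window of the upstream start of *Cdkn1a* alone. Single half-sites, present in 7.13% of all windows, occurred in those of *Gadd45a* and *Mdm2*, and none was found in those of *Sfn*, *Cdkn1b*, *Ccnd3* or the downstream *Cdkn1a* start. The *Cdkn1a* window (chr17:29090729-29090978, plus strand) is shown because *Cdkn1a* is the member with a bulk difference; capitals mark the half-sites, which begin 73 and 51 bases before the start. A match is a description of these letters and not a measured site.
Cdkn1a upstream window: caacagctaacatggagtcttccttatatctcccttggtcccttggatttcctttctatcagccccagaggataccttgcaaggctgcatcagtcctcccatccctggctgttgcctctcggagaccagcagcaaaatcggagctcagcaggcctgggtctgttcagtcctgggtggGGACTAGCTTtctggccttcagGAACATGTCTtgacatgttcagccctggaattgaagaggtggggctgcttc

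The first question was whether the basal cells with and without *Troy*-EGFP differed in these genes. Between ITGA6bright EGFP+ and EGFP- cells, *Cdkn1a* was higher in EGFP+ cells, by 2.15-fold, and no other member passed the test. In all, 1 of the 6 members tested was called, where 7.05% of all 4653 genes tested were called; genes were tested by quasi-likelihood in edgeR and called at an adjusted p (Benjamini-Hochberg) of 0.05 throughout. *Gadd45a*, *Ccnd3* and *Cdkn1c* had too few counts to be tested.

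*Cdkn1a*, the p21 inhibitor, stood at 443 and 489 CPM in the EGFP+ cells of mouse 1 and mouse 2, at 143 and 239 CPM in their EGFP- cells and at 323 and 459 CPM in their viable cells. Both EGFP+ libraries lay above both EGFP- libraries, and in each mouse the viable cells lay between. These populations did not overlap for 2 of the 6 members tested, *Cdkn1a* and *Ccnd1*, and for 48.5% of all genes tested. The log2 fold change of EGFP+ against EGFP- was 1.10 (SE 0.31, 95% interval 0.45 to 1.76, adjusted p = 0.0366, edgeR). With the mouse as a block it was 1.14 (adjusted p = 0.00667), while DESeq2 gave an adjusted p of 0.0919 and a fit on these populations alone 0.0958. The call was also lost without the library of viable mouse 1 (adjusted p = 0.0521), EGFP+ mouse 1 (0.128), EGFP- mouse 1 (0.0537) or EGFP+ mouse 2 (0.208), with log2 fold changes of 0.84 to 1.55 over all 13 alternatives.

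Markers of differentiated IFE cells moved with *Cdkn1a*: all 7 of the list were detected in both EGFP+ libraries, with a summed level of 2976 to 3011 CPM against 834 to 1231 in EGFP- cells, where *Ptgs1* was at 0 in mouse 1. *Krt10*, a keratin of suprabasal cells, was 975 and 1091 CPM in EGFP+ and 329 and 254 CPM in EGFP- cells. Markers of undifferentiated IFE cells were higher as well, with 7 of 7 detected in every library and 26591 to 27594 CPM in EGFP+ against 12575 to 15513 in EGFP- cells. Upper hair follicle (HF) markers moved the other way, with 5 of 6 detected in every library (*Plet1* at 0), 649 to 822 CPM in EGFP+ and 3666 to 6449 in EGFP- cells. Lower HF markers summed to 782 and 1033 CPM in EGFP+ cells, with 7 and 5 of 8 detected, and to 2228 and 4271 CPM in EGFP- cells, with 6 of 8 detected and *Cd34* and *Fgf18* at 0. Necrotic markers, 3 of 3 detected, summed to 10423 and 10893 CPM in EGFP+ and to 12511 and 19806 CPM in EGFP- cells. Langerhans cell markers summed to 92.7 to 102 CPM in EGFP+ cells, with 4 of 7 detected and *Cd207* and *Csf1r* at 0, and to 1124 to 1201 CPM in EGFP- cells with 6 of 7 detected. The 10 proliferation genes were all detected and summed to 626 to 738 CPM in EGFP+ and 1168 to 1259 CPM in EGFP- cells. Fewer cells of a type and less RNA per cell cannot be told apart in bulk samples, and the part of these markers in the result was not tested.

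*Ccnd1* levels of EGFP+ cells, 208 and 228 CPM, also lay above those of EGFP- cells, 56 and 137 CPM, and near those of viable cells, 197 and 276 CPM. The EGFP- libraries rest on 9 and 27 counts. The difference of 0.97 (SE 0.37) did not pass the test (adjusted p = 0.129). Blocked by mouse it did, at 1.03 (adjusted p = 0.0419, edgeR), when 2 of the 6 members and 10.1% of all genes were called.

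*Ccnd2* differed widely between the EGFP- libraries, with 341 CPM in mouse 1 and 899 CPM in mouse 2, while viable cells gave 763 and 771 CPM and EGFP+ cells 980 and 851 CPM. The EGFP- library of mouse 2 lay within the range of EGFP+ cells. No difference was called (log2 fold change 0.39, SE 0.34, adjusted p = 0.579). Without the EGFP- library of mouse 2, *Ccnd2* differed by 1.27 (adjusted p = 0.000211), *Ccnd1* by 1.80 (adjusted p = 0.00187) and *Cdkn1a* by 1.55 (adjusted p = 0.000209), 3 of 6 members in a fit that left 1 EGFP- library and called 13.4% of 5586 genes. T cell markers, which accompany *Ccnd2* in the single cells described further on, summed to 149 to 260 CPM in EGFP- cells with 4 to 6 of 7 genes detected, against 4.22 to 7.43 in EGFP+ cells with 1 to 3 detected. Between the EGFP- libraries they ran opposite to *Ccnd2*, with 260 CPM in mouse 1 and 149 CPM in mouse 2; *Trdc* was at 0 in all 6 bulk libraries. Their part in the difference between populations was not tested.

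Among the other members, *Cdkn1b* (p27) followed the mouse more than the population. Its levels were 50.0 CPM in viable, 49.5 in EGFP+ and 55.8 in EGFP- cells of mouse 1, and 133, 135 and 198 CPM in mouse 2, so that every library of mouse 2 lay above every library of mouse 1. EGFP+ and EGFP- cells differed by -0.76 (SE 0.52, adjusted p = 0.456). Without EGFP- mouse 1, which also leaves 1 EGFP- library, it was called at -1.34 (adjusted p = 0.00532), beside 7.71% of 5600 genes.

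*Sfn* stood at 323 and 240 CPM in EGFP+ cells, 310 and 137 in EGFP- cells and 260 and 232 in viable cells, with overlapping groups (difference 0.19, 95% interval -0.54 to 0.91). *Mdm2* stood at 62.5 and 42.1 CPM, 80.6 and 45.7 CPM and 60.0 and 46.4 CPM in the same order (difference -0.37, 95% interval -1.32 to 0.58). These intervals hold changes of over 1.5-fold in at least 1 direction, so the libraries do not show that *Sfn* and *Mdm2* were alike. *Gadd45a* had 7 and 4 counts in EGFP+ cells, 0 and 2 in EGFP- cells and 5 and 6 in viable cells. *Ccnd3* and *Cdkn1c* had 1 count each in the whole bulk set, both in EGFP- cells.

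**Figure D1:**
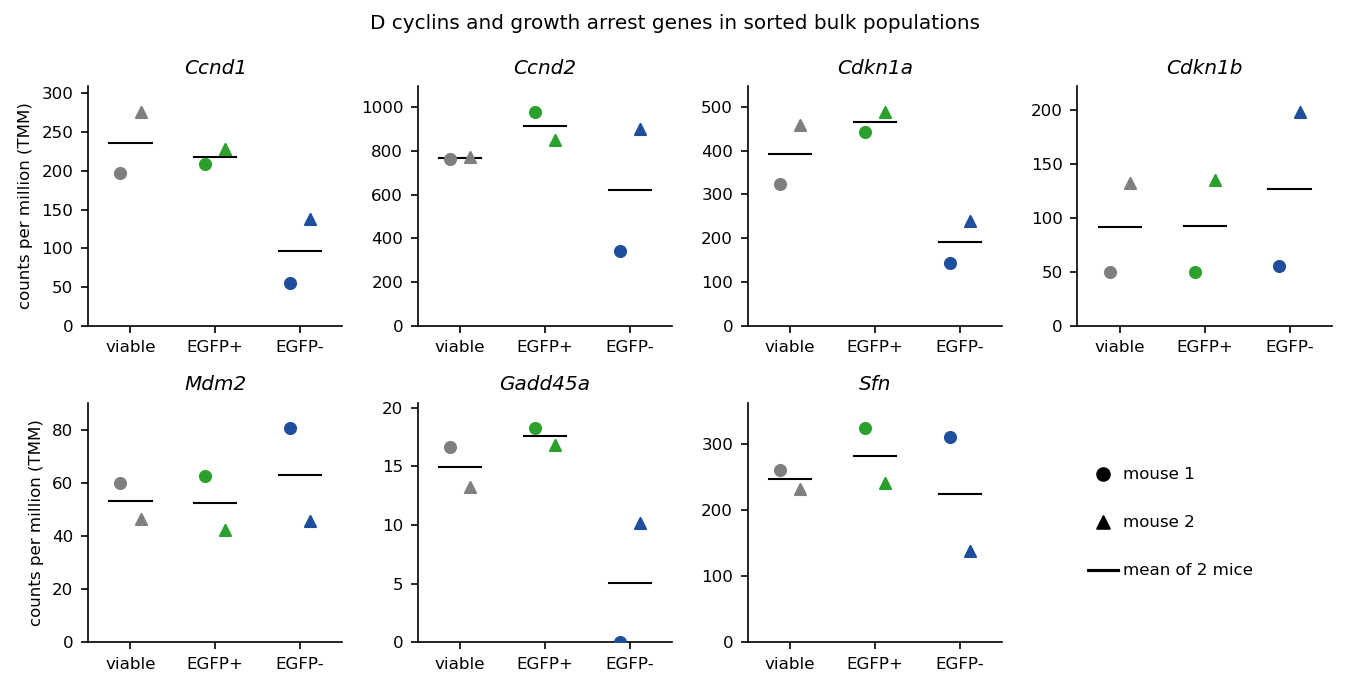
Levels of 7 members in the 6 bulk libraries, in TMM-scaled CPM on axes that start at 0; circles are mouse 1, triangles mouse 2 and bars the mean of both. *Cdkn1a* in EGFP- cells (143 and 239) lies below all other libraries, and *Cdkn1b* separates the mice instead of the populations.

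Against all viable cells, the comparisons share the viable libraries with each other and the EGFP libraries with the comparison above. In EGFP+ cells 0 of 6 members were called by edgeR, where 0.473% of all genes were; 0 had an unadjusted p under 0.05, against 6.66% of all genes, and 0 were called by DESeq2. Their differences from viable cells ran from -0.13 for *Cdkn1b* to 0.26 for *Ccnd2*. In EGFP- cells 0 of 6 were called by edgeR, where 1.78% of all genes were; 2 had an unadjusted p under 0.05, against 13.5% of all genes, and 0 were called by DESeq2. Those were *Ccnd1*, at -1.09 (SE 0.36, adjusted p = 0.147), and *Cdkn1a*, at -0.85 (SE 0.31, adjusted p = 0.201). With the mouse as a block, *Ccnd1* was called at -1.11 (adjusted p = 0.0487, edgeR), 1 of 6 members against 3.5% of all genes. Leaving out the EGFP- library of mouse 2 gave calls for *Ccnd1* (-1.92), *Ccnd2* (-1.0) and *Cdkn1a* (-1.30), where 8.31% of 5586 genes were called, and leaving out that of mouse 1 a call for *Cdkn1b* (1.15), where 3.21% of 5600 were.

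**Figure D2:**
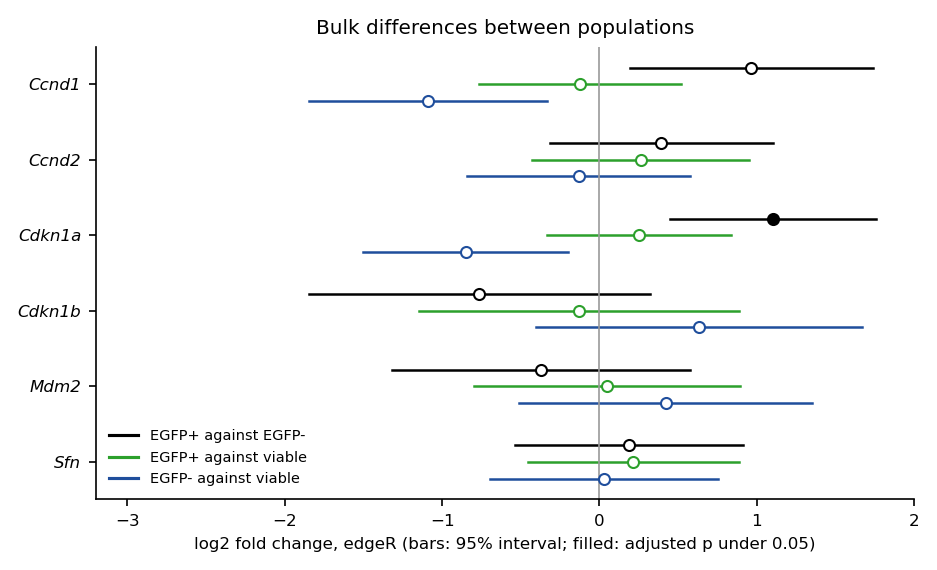
Log2 fold changes of the 6 members tested in the 3 bulk comparisons, with 95% intervals from edgeR. The *Cdkn1a* interval for EGFP+ against EGFP- runs from 0.45 to 1.76; those of *Ccnd2*, *Cdkn1b*, *Mdm2* and *Sfn* include 0 in every comparison.

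Single cells show where in the epidermis these levels lie. Wells were clustered without the members, and classes were named from marker lists as undifferentiated IFE (IFE I-like, *Krt14* and *Krt5*), differentiated IFE (IFE II-like, *Krt1* and *Krt10*), lower HF-like (*Cd34*, *Lhx2*, *Postn*) and upper HF-like (*Krt79*, *Cst6*, *Gata6*). The traced plates had an additional cluster of 86 wells led by *Dct*, *Sostdc1* and *Aldh3a1*, which was left without a cell type name because only 1 of 3 detected melanocyte markers was over 2-fold in it. This cluster depends on the clustering resolution. At the alternative resolution of 0.5 it was absent, and the traced upper HF-like class held 133 wells instead of 47. Traced upper HF-like levels and shares below are those of the 47 wells, and those of the wider class are not given. Class levels are given as CPM of all transcripts summed over a class and mouse, with no TMM scaling, for classes of at least 10 wells, which leaves out *Troy*-EGFP mouse 1.

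*Ccnd2* in IFE I-like wells reached 711, 1834 and 1278 CPM in *Troy*-EGFP mice 2, 3 and 4, and 791 and 1079 CPM in traced mice 1 and 2. Upper HF-like wells held 480, 729 and 765 in the *Troy*-EGFP mice, lower in each mouse than IFE I-like wells although the ranges overlap, and 190 and 223 in the traced mice. In lower HF-like wells it was 171, 241 and 205 CPM, and 164 and 229 in the traced mice. The lowest *Ccnd2* levels of the *Troy*-EGFP mice were those of IFE II-like wells, 99.0, 144 and 127 CPM; the traced mice gave 92.4 and 304, which overlap with their hair follicle classes. The *Dct*, *Sostdc1* and *Aldh3a1* cluster, with 895 and 1009, could not be set apart from the traced IFE I-like wells. From IFE I-like to IFE II-like wells *Ccnd2* differed by -3.08 ± 0.44 on the log2 scale (SD, n = 3 *Troy*-EGFP mice; pseudocount 20 CPM) and by -2.31 ± 0.77 (SD, n = 2 traced mice).

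*Cdkn1a* showed the opposite order in the IFE. Its level was 575, 809 and 859 CPM in IFE II-like wells of *Troy*-EGFP mice 2, 3 and 4 and 908 and 924 in those of the traced mice, against 59.2, 138 and 96.2 and then 141 and 71.2 in IFE I-like wells. No IFE I-like level came near an IFE II-like level in any mouse. The difference was 2.74 ± 0.30 (SD, n = 3) in *Troy*-EGFP and 2.95 ± 0.60 (SD, n = 2) in traced mice; with each well thinned to 1000 transcripts it was 1.73 ± 1.34 and 3.63 ± 0.91. Upper HF-like wells came next in the *Troy*-EGFP mice (356, 316 and 229) and were at the level of IFE II-like wells in the traced mice (819 and 1270). The traced values hold for the class of 47 wells and were not tested in the wider class at resolution 0.5. Lower HF-like wells gave 20.1, 133 and 156 in the *Troy*-EGFP mice, overlapping with IFE I-like wells, and 63.2 and 394 in the traced mice. The last value rests on 1 well of 50743 transcripts, which held 49.3 *Cdkn1a* and 1123 *Krt10* transcripts; without it the level was 200 CPM, and *Krt10* in the class went from 5622 to 59.8 CPM.

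*Ccnd1*, the second detected D cyclin, was also highest in IFE I-like wells, at 389, 228 and 181 CPM in *Troy*-EGFP and 308 and 371 in traced mice. IFE II-like wells held 119, 4.12 and 17.0 and then 8.40 and 119 CPM, the highest of which rest on 6 and 11 transcripts. Lower HF-like wells lay between in the *Troy*-EGFP mice, at 201, 99.8 and 107, and in traced mouse 1, at 82.1, while traced mouse 2 had 99.4, below its IFE II-like wells. The IFE II-like minus IFE I-like difference was -2.45 ± 0.90 (SD, n = 3) and -2.51 ± 1.44 (SD, n = 2). *Ccnd3* gave 0 to 11 transcripts a class over all mice, so a *Ccnd3* pattern could not be read at this depth.

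**Figure D3:**
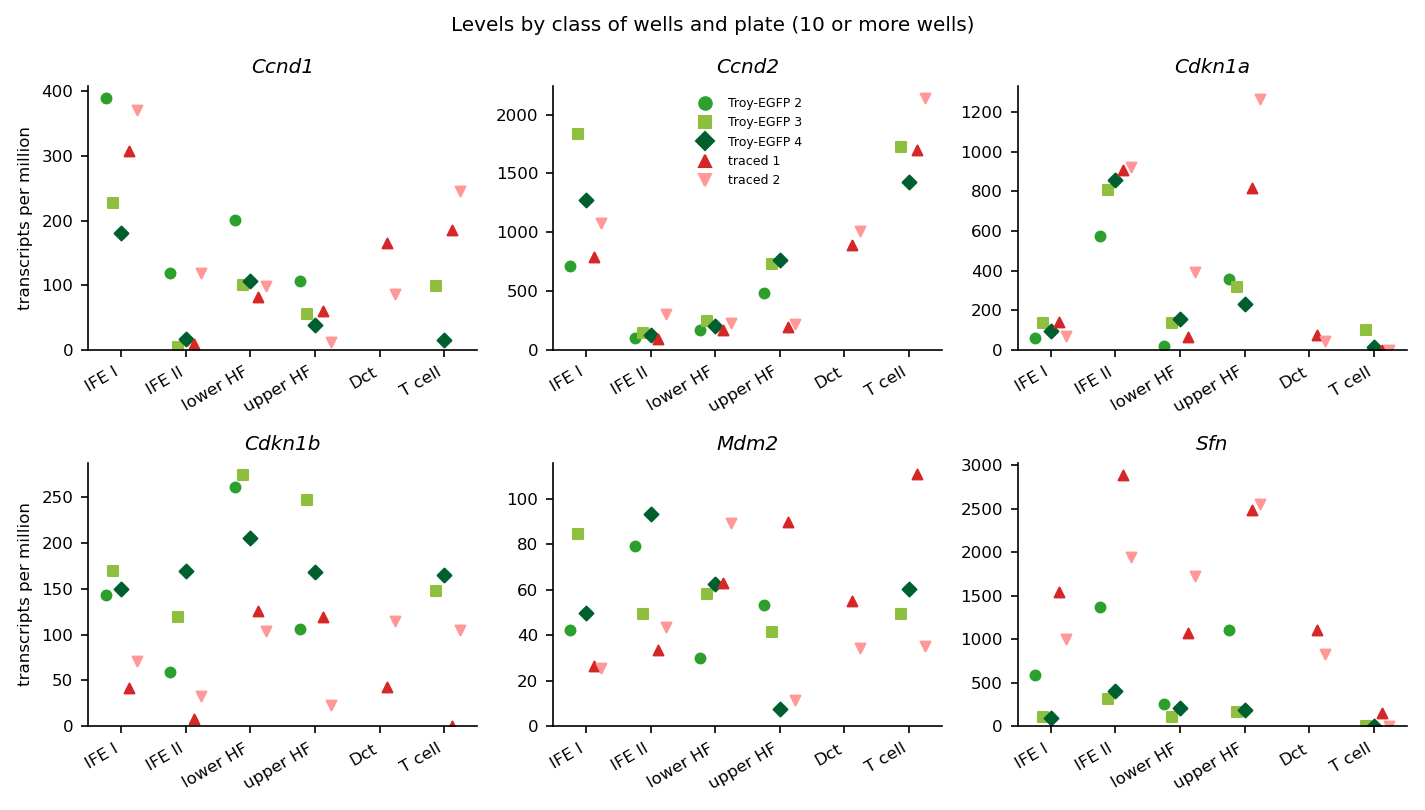
Levels of members in CPM by class of wells, 1 point a mouse (*Troy*-EGFP mice 2 to 4, traced mice 1 and 2), on axes that start at 0. *Dct* stands for the cluster without a name and T cell for the removed T cell-like wells. Among the named epidermal classes *Ccnd2* is highest in IFE I-like wells (711 to 1834) and *Cdkn1a* in IFE II-like wells (575 to 924), joined in traced mice by upper HF-like wells (819 and 1270). The traced upper HF-like class shown has 47 wells, and at a clustering resolution of 0.5 it held 133.

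Of the other CIP/KIP inhibitors, *Cdkn1b* did not follow *Cdkn1a*. It was highest in lower HF-like wells of the *Troy*-EGFP mice (261, 274 and 205 CPM), where upper HF-like (107, 247 and 168), IFE I-like (144, 169 and 150) and IFE II-like wells (59.4, 120 and 170) overlapped. Traced mice had 126 and 104 in lower HF-like wells, against 41.8 and 71.2 in IFE I-like, 8.40 and 32.6 in IFE II-like and 120 and 23.5 in upper HF-like wells. The *Dct*, *Sostdc1* and *Aldh3a1* cluster, with 42.9 and 115, lay above lower HF-like wells in traced mouse 2. That order rests on the well of 50743 transcripts: without it the lower HF-like level of traced mouse 2 was 126 CPM, above this cluster. The IFE difference of -0.44 ± 0.60 (SD, n = 3) is smaller than its spread in the *Troy*-EGFP mice; in the traced mice it was -0.96 ± 0.23 (SD, n = 2). *Cdkn1c*, which encodes p57, was found at 8.92 to 30.1 CPM in lower HF-like wells of the *Troy*-EGFP mice, 7 transcripts in all, and at 0 in the other 3 classes. In the traced mice it was found in IFE I-like wells of both (1 transcript each) and in lower HF-like wells of mouse 1 alone (12.6 CPM, 2 transcripts), so no common class order could be read.

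*Sfn* was higher in IFE II-like than IFE I-like wells in all 5 mice, at 1369, 318 and 400 against 584, 111 and 100.0 CPM in *Troy*-EGFP mice 2, 3 and 4 and at 2887 and 1948 against 1545 and 1007 in traced mice 1 and 2. The difference was 1.46 ± 0.31 (SD, n = 3) and 0.92 ± 0.03 (SD, n = 2). *Troy*-EGFP mouse 2, whose table lists no mitochondrial rows and which held Y-linked transcripts, had the highest *Sfn* of the *Troy*-EGFP mice in each of the 4 classes. *Mdm2* ranged from 7.63 to 93.5 CPM over the 4 epidermal classes and 3 mice of the *Troy*-EGFP plates, with an IFE difference of 0.26 ± 0.74 (SD, n = 3). *Gadd45a* gave at most 18 transcripts a class. Among the epidermal classes its highest mean was in upper HF-like wells of both groups (31.6 and 62.8 CPM), where it rests on 10 and 11 transcripts.

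Shares of wells were read next. After each well was thinned to 1000 transcripts, a *Ccnd2* transcript was seen in 89 of 160 IFE I-like wells (55.6%, exact binomial 95% interval 47.6 to 63.5) and in 10 of 115 IFE II-like wells (8.70%, 4.25 to 15.4) of the *Troy*-EGFP plates; unthinned shares were 82.0% and 32.2%. Langerhans cell-like wells, read as a class outside the keratinocytes, had it in 1 of 39 (2.56%, 0.0649 to 13.5). Their median was 3008 transcripts a well against 3210 in IFE I-like wells. The IFE II-like share overlaps with that of these wells. Whether a transcript in them is free RNA or their own was not tested. *Cdkn1a* was seen in 44 of 115 IFE II-like wells (38.3%, 29.4 to 47.8) and 14 of 160 IFE I-like wells (8.75%, 4.87 to 14.2), or unthinned 75.7% and 20.5%. By mouse the thinned *Cdkn1a* shares of IFE II-like and IFE I-like wells were 47.1% and 12.2% in *Troy*-EGFP mouse 3 and 34.9% and 4.69% in mouse 4, but 2 of 14 (14.3%) and 4 of 38 (10.5%) in mouse 2, where the classes could not be told apart by this share. Langerhans cell-like wells had it in 0 of 39, which allows up to 9.03%, and T cell-like wells in 2 of 43 (4.65%), so the IFE I-like share overlaps with theirs. In the traced plates *Cdkn1a* was seen in 33 of 47 upper HF-like (70.2%), 24 of 44 IFE II-like (54.5%), 8 of 124 IFE I-like (6.45%) and 0 of 28 T cell-like wells. *Ccnd2* was seen there in 68 of 124 IFE I-like (54.8%) and 9 of 44 IFE II-like wells (20.5%, 9.80 to 35.3). These intervals cover counting error only, and wells of a mouse share their source.

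*Sfn* gave the highest shares of any member in the traced plates, where thinned wells held it in 38 of 44 IFE II-like (86.4%), 40 of 47 upper HF-like (85.1%), 86 of 124 IFE I-like (69.4%), 51 of 100 lower HF-like (51.0%) and 50 of 86 wells of the *Dct*, *Sostdc1* and *Aldh3a1* cluster (58.1%). In the *Troy*-EGFP plates the shares were 26.1% of IFE II-like, 18.3% of upper HF-like, 15.6% of IFE I-like and 13.7% of lower HF-like wells. These pool unlike mice: the IFE I-like share was 34.2% in mouse 2 and 8.16% and 7.81% in mice 3 and 4. Over these mice the share ran from 13.7% to 57.1% in IFE II-like and from 4.55% to 42.9% in upper HF-like wells. Langerhans cell-like wells had *Sfn* in 0 of 39, which allows up to 9.03%, and T cell-like wells in 2 of 28 on the traced plates (7.14%). *Ccnd1* was seen in 30 of 160 IFE I-like wells (18.8%) and 2 of 115 IFE II-like wells (1.74%) of the *Troy*-EGFP plates and in 29 of 124 (23.4%) and 0 of 44 (up to 8.04%) on the traced plates; Langerhans cell-like wells had it in 5 of 39 (12.8%). *Cdkn1b* was seen in 34 of 153 lower HF-like wells of the *Troy*-EGFP plates (22.2%, 15.9 to 29.6), 26 of 160 IFE I-like wells (16.3%, 10.9 to 22.9) and 12 of 115 IFE II-like wells (10.4%, 5.51 to 17.5). Langerhans cell-like wells had it in 7 of 39 (17.9%), and the *Cdkn1b* shares of all 4 epidermal classes of the *Troy*-EGFP plates lay within the interval of that class, 7.54 to 33.5. For *Mdm2* all thinned shares of epidermal classes lay at or below 6.96%.

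Wells were then counted by whether they held *Ccnd2*, *Cdkn1a* or both. Among thinned IFE I-like wells of the *Troy*-EGFP plates, 84 of 160 had *Ccnd2* alone, 9 *Cdkn1a* alone and 5 both, and among 115 IFE II-like wells the counts were 9, 43 and 1. In the traced plates they were 64, 4 and 4 of 124 IFE I-like wells, 3, 18 and 6 of 44 IFE II-like wells and 4, 27 and 6 of 47 upper HF-like wells. In traced IFE II-like wells 6 of the 9 with *Ccnd2* thus also held *Cdkn1a*, beside 54.5% of all wells of that class, and in upper HF-like wells 6 of 10, beside 70.2%. IFE I-like wells with a transcript of a proliferation gene had *Ccnd2* in 21 of 45 (46.7%) and those without in 68 of 115 (59.1%); in the traced plates the counts were 28 of 49 (57.1%) and 40 of 75 (53.3%). *Ccnd2* detection thus did not go in 1 direction with these transcripts across the 2 groups of mice, and no test was made.

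A view without class names ranked the epidermal wells of each plate by their share of *Krt10* transcripts, in 4 bins of equal size. *Cdkn1a* was chosen by its level in wells rich in *Krt10*, so for this gene the view repeats the choice and is a description. In the highest bin *Cdkn1a* was 299, 315, 848 and 793 CPM on *Troy*-EGFP plates 1 to 4 and 614 and 585 on traced plates 1 and 2, above every lower bin of the same plate. *Sfn* was highest in that bin as well on each of the 6 plates, at 303 to 2331 CPM. *Ccnd2* in it was 349, 335, 135 and 242 and then 222 and 436, below every lower bin except on *Troy*-EGFP plate 2, where the lowest bin held 134. *Ccnd1* in the highest bin was 0, 217, 4.66 and 31.1 CPM and then 68.2 and 152, the lowest of its plate everywhere except on *Troy*-EGFP plate 2. *Cdkn1b* kept no common order along the bins of the *Troy*-EGFP plates, with 99.6, 167, 130 and 156 CPM in the highest bin against 96.8, 188, 215 and 261 in the lowest. On the traced plates its highest bin held 21.3 and 67.9 CPM, below every other bin, against 89.8 and 112 in the lowest. The median *Krt10* level was 0 in the lowest 2 bins of all plates, and also in bin 3 on *Troy*-EGFP plate 2 and both traced plates. Ties were broken by well order, so the place of wells without *Krt10* among these bins is arbitrary. The lowest bin of the *Troy*-EGFP plates was 49.6% lower HF-like wells while the highest was 78.0% IFE II-like wells. The highest bin of the traced plates was a wider mixture, with 43% IFE II-like and 23% IFE I-like wells, 15% of the *Dct*, *Sostdc1* and *Aldh3a1* cluster, 7% upper HF-like wells and 12% lower HF-like wells.

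**Figure D4:**
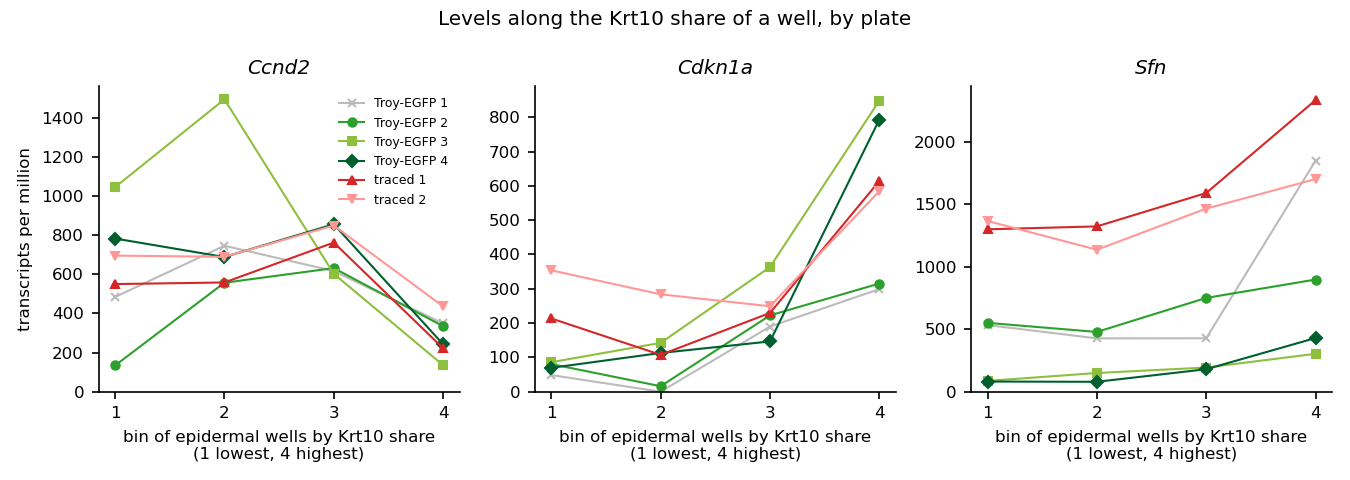
*Ccnd2*, *Cdkn1a* and *Sfn* in CPM over 4 bins of the epidermal wells of each plate by *Krt10* share, 1 line a plate. *Cdkn1a* was chosen by its level in wells rich in *Krt10*. *Cdkn1a* (299 to 848) and *Sfn* are highest in bin 4 on all 6 plates, and *Ccnd2* is low there (135 to 436).

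The second comparison of the design was between the traced and the *Troy*-EGFP plates, over transcripts summed across the epidermal wells of a plate. Sorting gates, allele dose, tamoxifen and reporter go with the group and cannot be told apart; the traced mice and *Troy*-EGFP mice 1 and 2 had Y-linked transcripts and *Troy*-EGFP mice 3 and 4 had *Xist*, so that sex differs between the groups in part. On all 6 plates 0 of the 7 members tested were called by edgeR, where 0.669% of 8371 genes were; 2 members had an unadjusted p under 0.05, against 16.4% of all genes, and DESeq2 called 1. For 3 of the 7 members the levels did not overlap between the groups, against 26.8% of the genes tested. *Sfn* was 1673 and 1404 CPM on the traced plates and 702, 691, 211 and 251 on *Troy*-EGFP plates 1 to 4 (difference 1.71, SE 0.51, adjusted p = 0.167). *Cdkn1b* was 63.2 and 77.6 CPM on the traced and 108, 159, 192 and 194 on the *Troy*-EGFP plates (difference -1.27, SE 0.32, adjusted p = 0.136; 0.0492 by DESeq2). *Cdkn1a* was 309 and 381 CPM on the traced plates, within the *Troy*-EGFP range of 119, 177, 447 and 386.

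Within the plates that list the same gene rows and hold Y-linked transcripts (*Troy*-EGFP 1 and 2 against both traced plates) 3 of 7 members were called, where 12.2% of 7059 genes were. *Cdkn1a* was higher in traced mice by 1.06 (SE 0.26, adjusted p = 0.0129), *Sfn* was higher by 1.08 (SE 0.22, adjusted p = 0.00320) and *Cdkn1b* differed by -1.08 (SE 0.31, adjusted p = 0.0312, edgeR). With the set of gene rows as a covariate the same 3 members were called, at 1.05, 1.08 and -1.09, again beside 12.2% of all genes. No traced plate lists mitochondrial rows, so this fit takes its difference from the same plates and is not a separate result. Both fits were chosen after the data were seen. For *Cdkn1a*, *Troy*-EGFP plates 3 and 4 held 447 and 386 CPM and plates 1 and 2 held 119 and 177. These sets of plates also differed in *Xist* and Y-linked transcripts and in the markers given next, which cannot be told apart from the gene rows.

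Marker levels also differed between plates. IFE II markers, with 7 of 7 detected on every plate, summed to 5933 and 4274 CPM on *Troy*-EGFP plates 1 and 2, to 12514 and 7864 on plates 3 and 4 and to 6943 and 7566 on the traced plates. Upper HF markers, 5 to 6 of 6 detected, summed to 447 and 8119 CPM on *Troy*-EGFP plates 1 and 2, 6432 and 7054 on plates 3 and 4 and 9579 and 8115 on the traced plates. Proliferation genes summed to 224 to 696 CPM on the *Troy*-EGFP plates, with 4 to 9 of 10 detected, and to 820 and 1087 CPM on the traced plates with 10 of 10. The necrotic list (*Mir1950*, *Kcnq1ot1* and *Malat1*), a sign of RNA quality, summed to 9309, 20284, 25425 and 33239 CPM on *Troy*-EGFP plates 1 to 4 with 3 of 3 detected and to 1769 and 1729 CPM on the traced plates with 2 and 3 detected; these sums did not overlap between the groups. *Itga6*, the marker of the basal gate, was 626 and 615 CPM on *Troy*-EGFP plates 1 and 2, 168 and 127 on plates 3 and 4 and 349 and 317 on the traced plates. Langerhans cell markers, 3 to 7 of 7 detected, summed to 37.2 and 253 CPM on *Troy*-EGFP plates 1 and 2, 737 and 715 on plates 3 and 4 and 136 and 195 on the traced plates. Their part in the plate differences of *Cdkn1a*, *Sfn* and *Cdkn1b* was not tested. In IFE I-like wells alone 0 members were called on the 6 plates, with differences of 2.08 for *Sfn*, -1.42 for *Cdkn1b* and 0.18 for *Cdkn1a*. Few genes of any kind were called in that fit, with their number given in the closing section, so 0 member calls lie at the background.

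The levels of *Ccnd2* and *Ccnd1* overlapped between the groups. *Ccnd2* was 508 and 621 CPM on the traced and 475, 407, 794 and 673 on the *Troy*-EGFP plates (difference -0.08, 95% interval -0.78 to 0.62), and *Ccnd1* was 159 and 155 against 205, 239, 103 and 106 (difference -0.05, 95% interval -1.0 to 0.90). Within the plates of the same gene rows the differences were 0.32 for *Ccnd2* (SE 0.23, adjusted p = 0.384, edgeR), -0.59 for *Ccnd1* (SE 0.25, adjusted p = 0.126), -0.11 for *Mdm2* and 1.83 for *Gadd45a* (SE 0.80, adjusted p = 0.146), none of them called. *Mdm2* was 48.3 and 44.0 against 54.0, 45.9, 65.0 and 66.1 CPM (difference -0.37, SE 0.32). *Gadd45a* was 24.8 and 28.4 against 0, 9.18, 13.7 and 22.5 CPM, with 70 transcripts in all (difference 0.87, SE 0.59, adjusted p = 0.519). *Ccnd3* with 25 and *Cdkn1c* with 11 transcripts were not tested. *Ccnd3* was 9.91 and 14.2 CPM on the traced plates, from 8 and 11 transcripts, and 0, 3.06, 3.42 and 3.96 CPM on the *Troy*-EGFP plates, without overlap.

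**Figure D5:**
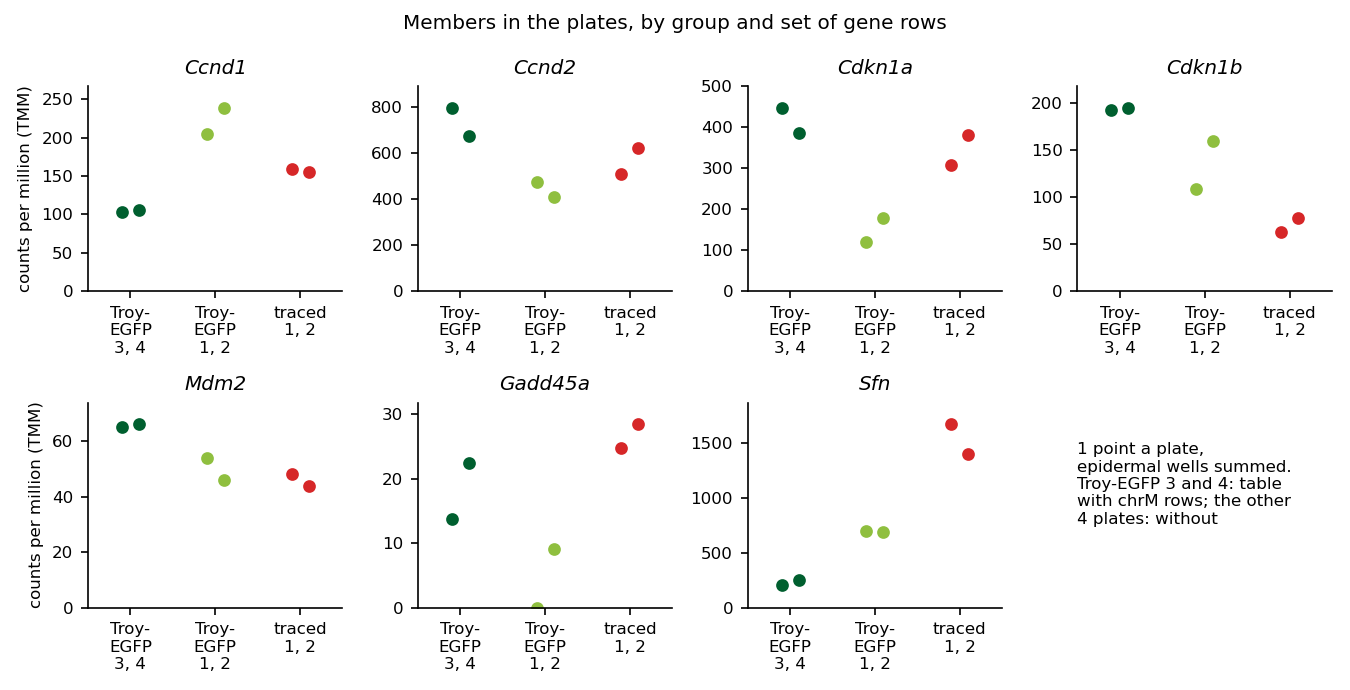
Levels of 7 members by plate in TMM-scaled CPM of summed epidermal wells, split by group and by the set of gene rows the plate's table lists. *Sfn*, *Cdkn1b* and *Gadd45a* do not overlap between traced and *Troy*-EGFP plates, as for 26.8% of all genes tested, and *Cdkn1a* differs between the *Troy*-EGFP plates of the 2 sets (119 and 177 against 447 and 386).

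Other genes of the same pathways were read from 4 lists. In the comparison of EGFP+ with EGFP- cells 0 of 4 tested G1 partners (kinases, pocket proteins, E2Fs and INK4 inhibitors, 21 listed), 0 of 3 of the p53 family and its regulators (6 listed), 0 of 6 other p53 targets (20 listed) and 0 of 6 Gadd45 and 14-3-3 family genes (8 listed) were called by edgeR or by DESeq2, where edgeR called 7.05% of all genes. Unadjusted p-values under 0.05 were found for 19.8% of all genes, for 2 of the 6 members and for 2 genes of the last list, *Ywhah* (-0.79) and *Ywhaz* (0.75), both 14-3-3 adaptor proteins and both named after their values were seen. The median difference of the 6 tested members was 0.29, that of the p53 family 0.73 (*Trp53*, *Trp63* and *Usp7*) and that of all genes -0.04. Against viable cells 0 genes of the lists were called by either tool in EGFP+ or EGFP- cells, where edgeR called 0.473% and 1.78% of all genes; an unadjusted p under 0.05 was found for 0 of them in EGFP+ cells (6.66% of all genes) and for 3 in EGFP- cells (13.5% of all genes; *Trp63* at -0.92, *Ywhah* at 0.77 and *Ywhaz* at -0.67). On the plates 0 of 15 G1 partners, 0 of 6 p53 family genes, 0 of 16 other p53 targets and 0 of 6 Gadd45 and 14-3-3 genes were called by either tool; edgeR called 0.669% of all genes there, so that 0 calls in lists of this size lie at the background. An unadjusted p under 0.05 was found for 4 G1 partners (*E2f1*, *Rbl2*, *Cdkn2d* and *E2f5*) and *Trp53*, and for 16.4% of all genes, with medians of 0.34 for G1 partners, 0.56 for the p53 family and -0.05 for the 7 tested members beside 0.00 for all genes.

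Genes whose levels were most like those of *Ccnd2* and *Cdkn1a* were sought over the 12 class and mouse sums of the *Troy*-EGFP plates, among 1530 genes of at least 100 CPM on average. Nearest to *Ccnd2* were *Fcgbp* (Pearson r = 0.942), *Smoc2* (0.912) and *Pdlim1* (0.870). Nearest to *Cdkn1a* were *Elovl4* (0.945), an elongase of the very long fatty acids of the skin barrier, *Evpl* (0.922), which encodes the cornified envelope protein envoplakin, and *Clic3* (0.918). The sums share plates and depth, so these are descriptions over 12 points.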

How the data were processed

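Bulk counts per gene (CEL-Seq2) and estimated transcripts per gene and well (SORT-seq) were analysed as deposited. For the bulk libraries the authors deposited raw counts, with no normalization. For the plates the authors deposited another unit, estimated transcripts, which are molecular barcode numbers corrected for the chance that molecules share a barcode; each is a whole number of barcodes out of 4096 within 1e-06. The submitters' processing notes name BWA 0.6.2-r126 and GRCm38, among other builds. Reads near the 3' end are counted, so levels carry no gene length.

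Bulk counts and plate sums (rounded) were tested in edgeR 4.0.16 in R 4.3.3 by the F test of its quasi-likelihood fit after TMM scaling and filterByExpr, with Benjamini-Hochberg adjustment over all genes and a threshold of 0.05, with SE as the log2 fold change over the square root of F. Replicates are mice. Bulk populations of a number share 1 sample label and were taken as 1 mouse, which pairs them. Deviations from the population means correlated across 4575 genes by 0.0905 (viable and EGFP+), 0.0956 (viable and EGFP-) and 0.0536 (EGFP+ and EGFP-). These values show little of the pairing. Plates share only a number.

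Wells of at least 1000 transcripts, without spike-in and mitochondrial rows, were clustered with Seurat 5.3.0 and sctransform 0.4.2 (3000 variable genes without the members and pathway lists, 20 components, resolution 0.8), separately for the *Troy*-EGFP and traced plates. Clusters with necrotic or non-epidermal markers were removed and the rest clustered again; no doublet caller was run. Members, lists and tests were chosen with earlier results of these data known. Named were all members, list genes that were called and the 3 genes most like *Ccnd2* and *Cdkn1a*; other names were chosen after their values were seen. Alternatives were DESeq2 1.42.0, RLE or no scaling, no filter, the mouse block, only the populations compared, all kept wells, IFE I-like wells, observed barcodes, a minimum of 2000 transcripts, resolution 0.5, thinning and leaving out each library.

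The fits were tested on simulated data before use. The number of per-sample columns without a sample was 0.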

Additional observations from a re-analysis of the deposited data

Results flagged for a closer look

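*Ccnd2* was abundant in wells outside the epidermal comparisons. T cell-like wells held it at 1373 CPM on the *Troy*-EGFP plates (134 transcripts) and at 1927 CPM on the traced plates (107 transcripts), above the limit that a count of 0 allows. In thinned wells it was seen in 29 of 43 T cell-like wells of the *Troy*-EGFP plates (67.4%, exact binomial 95% interval 51.5 to 80.9) and in 19 of 28 of the traced plates (67.9%, 47.6 to 84.1), against 1 of 39 Langerhans cell-like wells (2.56%). By mouse, where at least 10 such wells were kept, the levels were 1721 and 1431 CPM on *Troy*-EGFP plates and 1700 and 2142 on traced plates. Among the 9 members no library stood apart within the 4 *Troy*-EGFP plates by the 95% critical value of Dixon's test for 4 samples, which chance exceeds in about 1 in 20 groups. The test looks for a single plate apart and cannot flag a split of the plates into equal parts, as described for *Cdkn1a* above.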

How the results depend on the processing

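Bulk calls are limited by 2 mice a population and by under 40 *Ccnd1* counts in the EGFP- cells together; low members could not be tested. Of the summary counts and class differences under alternatives, 88 stayed within 1.5 times or 1 SD and 56 moved further. Library totals alone, RLE factors and dropping mitochondrial genes moved no bulk count of calls by over 1.5 times, though EGFP- against viable went from 43 higher and 40 lower genes to 27 and 49 with library totals alone and to 43 and 90 without a filter. The cause of the changes below was not tested.

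EGFP+ against EGFP- called 328 genes and 1 member. DESeq2 called 136 and 0, the fit on these populations alone 151 and 0, and the replicate block 468 and 2; leaving out 1 library gave 131 (without EGFP+ mouse 1) to 751 genes (without EGFP- mouse 2) and 0 to 3 members. EGFP+ against viable called 22 genes: 43 without a filter, 12 with DESeq2, 49 with the block, 66 on these populations alone and 7 to 124 when leaving out 1 library. EGFP- against viable called 83 genes and 0 members: 133 without a filter, 49 with DESeq2, 163 and 1 with the block, 38 on these populations alone, and 27 to 464 genes and 0 to 3 members when leaving out 1 library. A population left with 1 library was assumed to vary like the others. The mice differed more in EGFP- (chi-square per degree of freedom 4.06) than in viable (2.44) or EGFP+ cells (1.5), so p-values with 1 EGFP- library may be too small.

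Traced against *Troy*-EGFP plates called 56 genes and 0 members. Without a filter there were 441 and 1 (*Sfn*), with DESeq2 176 and 1 (*Cdkn1b*), with all kept wells 35, and with IFE I-like wells 35. Leaving out 1 plate gave 0 (without either traced plate) to 901 genes and 0 to 2 members; without *Troy*-EGFP 2, *Sfn* (2.02, adjusted p = 0.0306, edgeR) and *Cdkn1b* (-1.32, 0.0243) were called. As a hint from the data only, since numbers pair no plates and only numbers 1 and 2 occur in both groups, a replicate block gave 696 genes and 2 members, *Cdkn1a* (1.13, adjusted p = 0.00510) and *Sfn* (1.07, 0.00166). Chosen after seeing the data were plates of the same gene rows (859 genes, 3 members), gene rows as a covariate (1023, 3), *Troy*-EGFP 2 against the traced plates (1391, 3, with 1 *Troy*-EGFP plate, whose spread was not measured and was taken from the traced plates) and leaving out the well of over 20000 transcripts, which kept 0 members called.

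For IFE II-like minus IFE I-like wells, the highest against the lowest of 4 bins by *Krt10* share gave -1.06 ± 2.05 for *Ccnd2* in *Troy*-EGFP mice (SD) and -0.95 ± 0.41 in traced mice, 1.07 ± 0.53 for *Cdkn1a* in traced mice, -1.27 ± 1.62 and -0.77 ± 0.79 for *Ccnd1* in both and 0.57 ± 0.37 for *Sfn* in traced mice. Thinning gave 1.73 ± 1.34 for *Cdkn1a* in *Troy*-EGFP mice, against 2.74 ± 0.30 unthinned, and 3.63 ± 0.91 in traced mice, with -1.30 ± 0.50 for *Mdm2*, against 0.34 unthinned, 0.84 for *Sfn* and -0.49 for *Cdkn1b* in traced mice. Low counts put *Ccnd3* and *Cdkn1c* at 0 in several of these. At resolution 0.5 the traced plates had no separate *Dct*, *Sostdc1* and *Aldh3a1* cluster, and their upper HF-like class held 133 wells instead of 47. The *Cdkn1a* and *Ccnd2* levels of the traced upper HF-like class were therefore read at 1 resolution only.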
